A study of Mus musculus and Rattus norvegicus with 28 samples.

Results

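The enzymes of fatty acid oxidation were examined in perinatal ventricular cardiomyocytes through a list of 36 genes. The genes were chosen by name and not by a cut on their values, though with earlier results of these data known. The list holds acyl-CoA synthetases and carnitine shuttle proteins (10 genes), acyl-CoA dehydrogenases (4), hydratases, hydroxyacyl-CoA dehydrogenases and thiolases (6), auxiliary enzymes for unsaturated chains (3), electron transfer proteins (3), peroxisomal enzymes (3), thioesterases (3) and malonyl-CoA enzymes and other regulators (4). All 36 were found by gene name among 55450 mouse genes, and 35 passed the filter on low values (at least 1 FPKM in 2 libraries, which left 13979 genes). FPKM is a fragment count scaled by transcript length and library depth, summed here over the transcripts of a gene. Ucp3 did not pass, being below 1 FPKM in 7 of 8 libraries. In rat, 35 of the 36 were found among 32623 genes, with Eci2 not matched, and 33 passed the filter.

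Mouse cardiomyocytes came from the left ventricles of wild-type C57BL/6 animals of both sexes at embryonic day 18.5 (E18.5) and postnatal days 1, 3 and 7 (P1, P3 and P7), with 2 RNA-seq libraries and 2 ATAC-seq peak lists for each age. Rat cells were ventricular cardiomyocytes of P1 Sprague Dawley pups of both sexes, kept in culture and given the histone deacetylase inhibitor trichostatin A (TSA, 100 nM, 3 libraries) or its solvent DMSO (3 libraries) 1 day after plating. No animal carried an engineered allele. The cells were enriched only by letting other cells attach to plastic, and whether a library pooled several animals is not given in the sources used here. The study describes its replicates as biological, and what set them apart (animals, litters or isolations) is not given in the sources used here, so p-values measure the spread between these libraries. The RNA-seq depth implied by the files ran from 29.3 to 37.5 M reads in mouse and from 28.2 to 38.5 M reads in rat.

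Fatty acids are activated to acyl-CoA in the cytosol, passed to carnitine by carnitine palmitoyltransferase 1, carried through the inner mitochondrial membrane and shortened in repeated rounds of dehydrogenation, hydration, a further dehydrogenation and thiolysis. The electrons pass through the electron transfer flavoprotein to the respiratory chain, and malonyl-CoA restrains the carnitine step. The fetal heart is known to rely largely on glucose and lactate, and the heart after birth on fatty acids.

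Marker RNA of several cell types changed with age, and those values stand first because every mouse comparison of ages spans them. The study reported, from troponin T staining, that its isolated cardiomyocytes were highly pure, also at P7. The summed FPKM of 16 cardiomyocyte markers was 33600 and 42820 at E18.5, 15130 and 24380 on P1, 10150 and 8796 on P3, and 2574 and 1074 on P7. All 16 were tested and all 16 were called lower at P7 than at E18.5, with a median log2 fold change of −4.26. The cardiac troponin T gene Tnnt2 stayed detected in every library, at 6141 and 7172 FPKM at E18.5 and 710.1 and 329.7 at P7. The summed FPKM of 12 fibroblast markers rose from 590.8 and 600.5 at E18.5 to 3063 and 3799 at P7, with 10 of 12 called higher and Dcn, which encodes the matrix proteoglycan decorin, at 84.5 to 85.5 FPKM at E18.5 and 617.2 to 625.6 at P7. The 7 erythroid markers summed to 29050 and 35400 at E18.5 and to at most 41.0 in any postnatal library. Of 12 endothelial markers 2 were called higher and 1 lower at P7, of 9 macrophage markers 1 and 1, and of 10 smooth muscle markers 5 and 3. Over all tested genes, 15.4% were called higher and 12.3% lower at P7. In these bulk samples, fewer cells of a type and less RNA per cell cannot be told apart, and the part of the marker shifts in the results on fatty acid oxidation genes was not tested.

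At the level of the whole list, transcripts of fatty acid oxidation genes were highest at E18.5 and lower at each later age. Their summed level was 3658 and 4333 FPKM at E18.5, 1677 and 1792 on P1, 1437 and 1462 on P3, and 1081 and 942.7 on P7. The ages did not overlap, and the largest step lay between E18.5 and P1. At P1, 19 of 35 members were called lower and 1 higher, where a call needs a Benjamini-Hochberg adjusted p below 0.05 together with a change larger than 1 on the log2(FPKM + 1) scale in limma. Over all 13979 genes the called share was 6.06% lower and 10.1% higher (16.2% in all). At P3, 22 were lower and 1 higher, against 8.88% and 13% of all genes (21.9% in all). At P7, 24 were lower and 3 higher, against 12.3% and 15.4% (27.7% in all). From P1 to P7 the members' median log2 fold change was −1.11, then −1.24, then −1.95, while the median over all genes was 0.15, 0.16 and 0.14. These 3 comparisons share the same E18.5 libraries, so they are not independent of each other. The libraries did not overlap at P1 for 26 members that were lower and 2 that were higher, against 26% and 43.5% of all tested genes, at P3 for 30 and 3, against 28.4% and 46.3%, and at P7 for 29 and 4, against 32.7% and 45.6%.

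**Figure D1:**
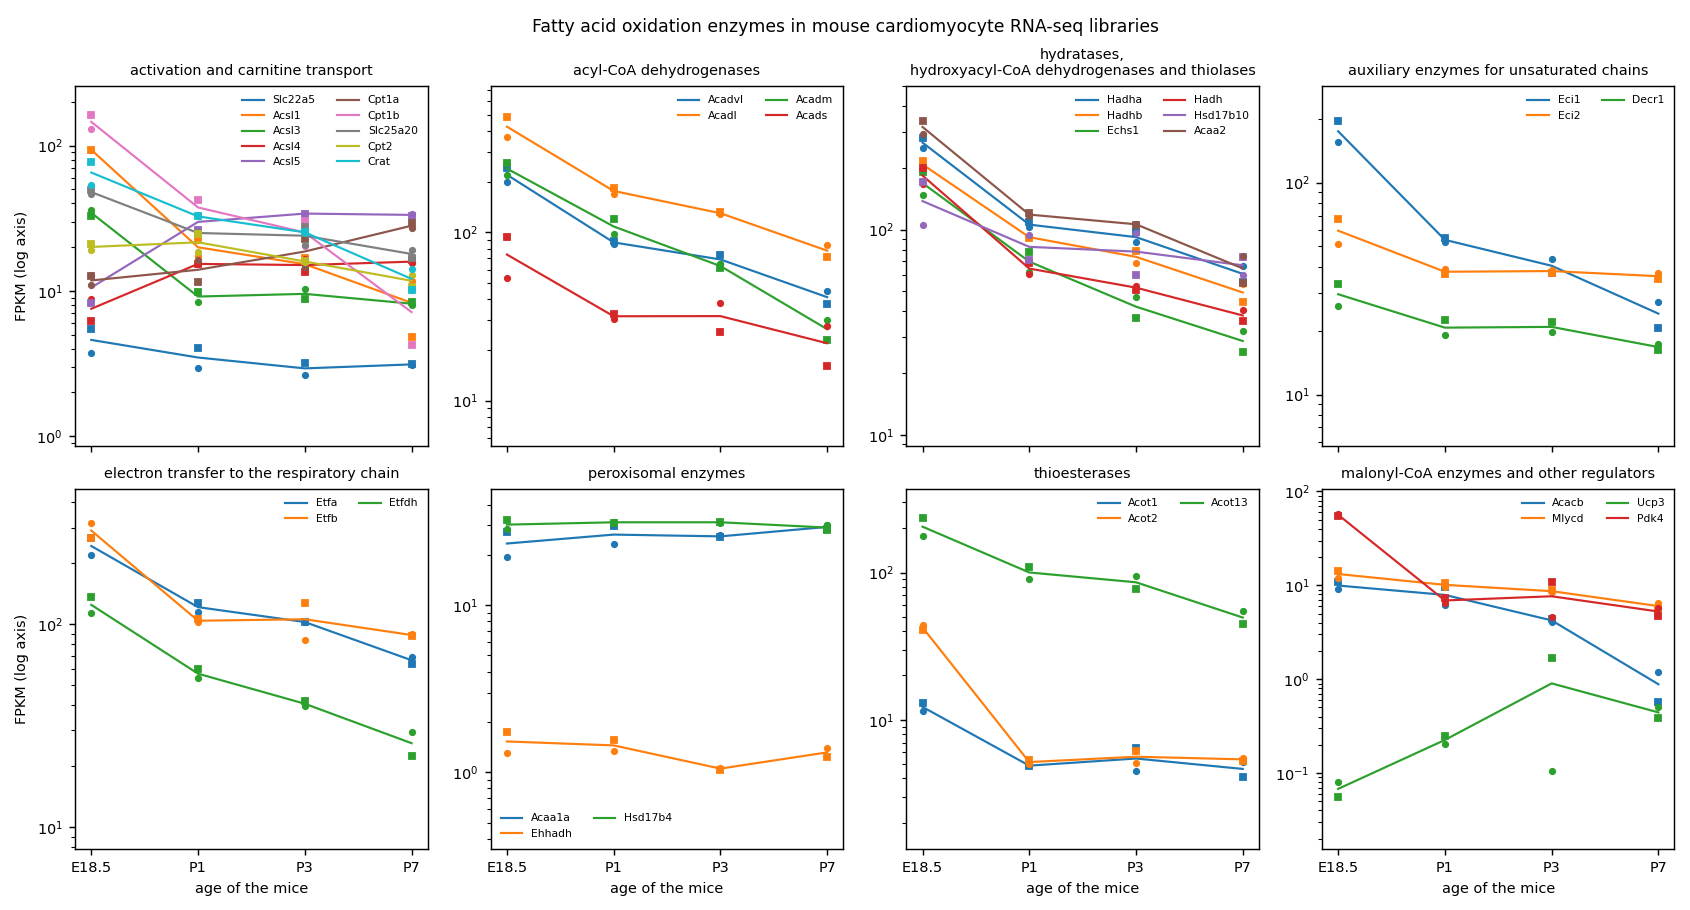
FPKM on a log axis of the 36 fatty acid oxidation genes at each mouse age, in 8 panels by role, with each library as a point and lines through the mean of the 2 libraries. Most lines fall from E18.5, whereas those of Acsl4, Acsl5 and Cpt1a rise and that of Hsd17b4 stays near 30 FPKM. The line of Acaa1a ends slightly higher, and that of the untested Ucp3 rises from a mean of 0.068 to 0.443 FPKM at P7.

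Relative to the cells' other transcripts, the picture depended on what the members were set against. As a share of all FPKM, the 36 genes made up 0.688% and 0.786% at E18.5, 0.362% and 0.395% on P1, 0.311% and 0.327% on P3, and 0.237% and 0.212% on P7. Divided by the cardiomyocyte marker sum, they were at 0.109 and 0.101 at E18.5, 0.111 and 0.0735 on P1, 0.142 and 0.166 on P3, and 0.420 and 0.878 on P7. By this measure the P1 libraries lay on either side of E18.5, and those of P3 and P7 lay above it. Divided by 27 subunits of the respiratory chain, they stayed between 0.204 and 0.301 in all 8 libraries. All 27 subunits were called lower at P7, with a median log2 fold change of −2.08 beside −1.95 for the members.

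The carnitine palmitoyltransferase 1 genes encode the enzyme that commits fatty acids to mitochondrial oxidation, Cpt1b in muscle and Cpt1a in liver and in the immature heart. Cpt1b (chr15:89416405-89425863, mm10) was at 129.7 and 161.9 FPKM at E18.5, 33.0 and 42.1 on P1, 20.2 and 30.2 on P3, and 10.1 and 4.22 on P7. Each age lay wholly below the one before it. The log2 fold change against E18.5 was −1.93 for P1, −2.50 for P3 and −4.26 ± 0.34 (SE, n = 2 per age, adjusted p = 3.95e-05, limma) for P7, the largest fall of the list and a 20.4-fold lower mean. Cpt1a was at 10.9 and 12.7 FPKM at E18.5, 16.4 and 11.6 on P1, 14.6 and 22.7 on P3, and 26.99 and 29.2 on P7. Its P1 libraries spanned those of E18.5, and its P7 libraries lay above all others. The log2 fold change at P7 was 1.19 ± 0.23 (SE, adjusted p = 0.0029, limma), and those at P1 (0.21) and P3 (0.59) were not called. The ratio of Cpt1b to Cpt1a, both per length, fell from 11.9 and 12.8 at E18.5 to 2.02 and 3.63 on P1, 1.38 and 1.33 on P3, and 0.373 and 0.145 on P7. Cpt1b was the more abundant of the pair through P3 and the less abundant at P7. Reads of Cpt1b are not wholly its own: 81.4% of its exon bases are shared with the overlapping gene Gm44502 on the same strand, which was at 8.78 and 11.6 FPKM at E18.5 and below 0.05 at P7.

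The promoter of Cpt1a is shown because it is the gene of this pair that rose, and the others shown further on because their transcripts or peaks carry the results. They were chosen after their values were seen. Each is the stretch of the RefSeq promoter window (250 bases before to 50 after a gene's start, GRCm38.p6, the assembly that mm10 names) that lies before its start and overlaps no annotated exon, 5′ to 3′ on the gene's strand. Capitals mark AGGTCA, the half-site of nuclear receptors, GGGCGG, the GC box, and CCAAT, each on either strand. The Cpt1a stretch, chr19:3323051-3323284 on the + strand, holds 1 half-site and 2 GC boxes.
Cpt1a: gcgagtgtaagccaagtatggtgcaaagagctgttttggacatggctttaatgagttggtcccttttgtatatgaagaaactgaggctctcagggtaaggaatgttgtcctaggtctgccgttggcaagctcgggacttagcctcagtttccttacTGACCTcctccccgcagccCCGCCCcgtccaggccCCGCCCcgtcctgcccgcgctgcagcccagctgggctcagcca

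Of the 31 windows matched to 30 members, 6 (19.4%) held AGGTCA, against 12.4% of 12875 windows of tested genes and 16.3% of all 32851. They belonged to Acacb, Acadm, Acadvl, Cpt1a, Echs1 and Ucp3. GGGCGG was in 21 windows (67.7%, against 62.1% of tested genes) and CCAAT in 17 (54.8%, against 37.5%). The NRF1 motif (GCGCA and GCGC with 1 base between) was in the windows of Etfb, Etfdh and Slc22a5 (9.68%, against 9.56%), and the AP-1 motif TGANTCA in that of Acadvl (3.23%, against 5.20%). The estrogen-related receptor element TCAAGGTCA, which contains the half-site, the DR1 element (AGGNCA repeated with 1 base between), the MEF2 core (CTA and TAG with 4 bases between) and the E-box CACGTG were in no member window, against 0.272%, 0.217%, 3.12% and 9.83% of tested genes. Both strands were searched, and a match is only a match of letters in this window. No window was matched for Cpt1b, Crat, Acaa2, Decr1, Hsd17b4 and Acot13. The median GC content of the windows was 60.7% for members and 60.7% for tested genes.

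The long-chain acyl-CoA synthetases, which activate fatty acids, moved in both directions. Acsl1, the main synthetase of the adult heart, was at 93.7 and 93.6 FPKM at E18.5, 17.3 and 22.6 on P1, 13.7 and 16.9 on P3, and 11.8 and 4.78 on P7. The log2 fold change at P7 was −3.46 ± 0.33 (SE, adjusted p = 7.98e-05, limma), an 11.3-fold lower mean. Acsl3, which acts at the endoplasmic reticulum and lipid droplets, fell by P1 and then stayed level, from 36.1 and 32.8 FPKM at E18.5 to 8.41 and 9.88 at P1 and 7.98 and 8.34 at P7. Acsl5 rose, from 12.9 and 8.23 FPKM at E18.5 to 33.5 and 26.3 on P1, 34.05 and 34.07 on P3, and 33.8 and 32.9 on P7. All 6 of its postnatal libraries lay above both E18.5 libraries, and the log2 fold change was 1.44 for P1, 1.63 for P3 and 1.60 ± 0.20 (SE, adjusted p = 0.000325, limma) for P7. Acsl4, which prefers arachidonate, was at 8.85 and 6.21 FPKM at E18.5 and 15.5 and 16.3 at P7. Its P7 log2 fold change of 1.00 ± 0.18 (adjusted p = 0.00195, limma) sat at the fold threshold, while those at P1 (0.96) and P3 (0.92) lay under it, and the P7 call was lost with median-of-ratios scaling and without E18.5 replicate 2 or P7 replicate 2. Of the exon bases of Acsl5, 8.31% are shared with Zdhhc6 on the opposite strand, which was at 7.85 and 10.2 FPKM at E18.5 and 14.5 and 16.3 at P7. As a share of the 4 synthetases, Acsl1 made up 61.8% and 66.5% at E18.5, 23.3% and 30.5% on P1, 18.3% and 23.1% on P3, and 17.0% and 7.67% on P7.

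Acsl1 is transcribed from more than one start on chromosome 8. Its 2 transcripts from the inner start, at position 46490966, summed to 77.6 and 74.4 FPKM at E18.5, 9.98 and 13.2 on P1, 5.55 and 6.85 on P3, and 9.25 and 0.0796 on P7. The 6 transcripts from the upstream start, at position 46471037, summed to 14.6 and 17.9 FPKM at E18.5, 6.68 and 8.53 on P1, 7.43 and 9.19 on P3, and 2.47 and 4.15 on P7. At E18.5 the inner start carried most of the Acsl1 signal, at P3 the upstream start carried the larger part in both libraries, and the P7 libraries went opposite ways. These are StringTie's estimates of how reads divide among transcripts that share exons. An ATAC peak covered the upstream start in all 8 lists. The inner start was covered in 5, with none within 2.5 kb in E18.5 replicate 1 and, in both P3 lists, a peak within 2.5 kb that ended before the start. Both stretches before these starts are shown, since they differ in composition: the upstream one, chr8:46470787-46471036 on the + strand, holds 4 GC boxes in 72.0% GC, and the inner one, chr8:46490716-46490965 on the + strand, holds no GC box and 2 CCAAT boxes in 48.4% GC. The Acsl5 stretch, chr19:55253119-55253368 on the + strand, has 1 CCAAT box and neither of the other motifs.
Acsl1 upstream start: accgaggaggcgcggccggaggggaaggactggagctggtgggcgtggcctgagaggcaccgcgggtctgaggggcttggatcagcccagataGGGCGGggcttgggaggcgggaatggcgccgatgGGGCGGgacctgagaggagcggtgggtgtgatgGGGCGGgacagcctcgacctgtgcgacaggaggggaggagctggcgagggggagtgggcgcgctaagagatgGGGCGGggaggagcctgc
Acsl1 inner start: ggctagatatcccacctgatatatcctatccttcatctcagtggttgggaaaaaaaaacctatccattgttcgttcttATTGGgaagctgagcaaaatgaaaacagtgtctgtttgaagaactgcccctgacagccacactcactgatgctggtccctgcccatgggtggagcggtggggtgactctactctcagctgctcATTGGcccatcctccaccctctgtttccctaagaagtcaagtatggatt
Acsl5: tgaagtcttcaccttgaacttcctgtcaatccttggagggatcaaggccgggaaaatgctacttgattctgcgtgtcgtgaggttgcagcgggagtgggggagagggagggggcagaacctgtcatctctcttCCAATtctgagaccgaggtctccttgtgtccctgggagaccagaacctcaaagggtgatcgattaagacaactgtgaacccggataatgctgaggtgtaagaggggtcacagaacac

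**Figure D2:**
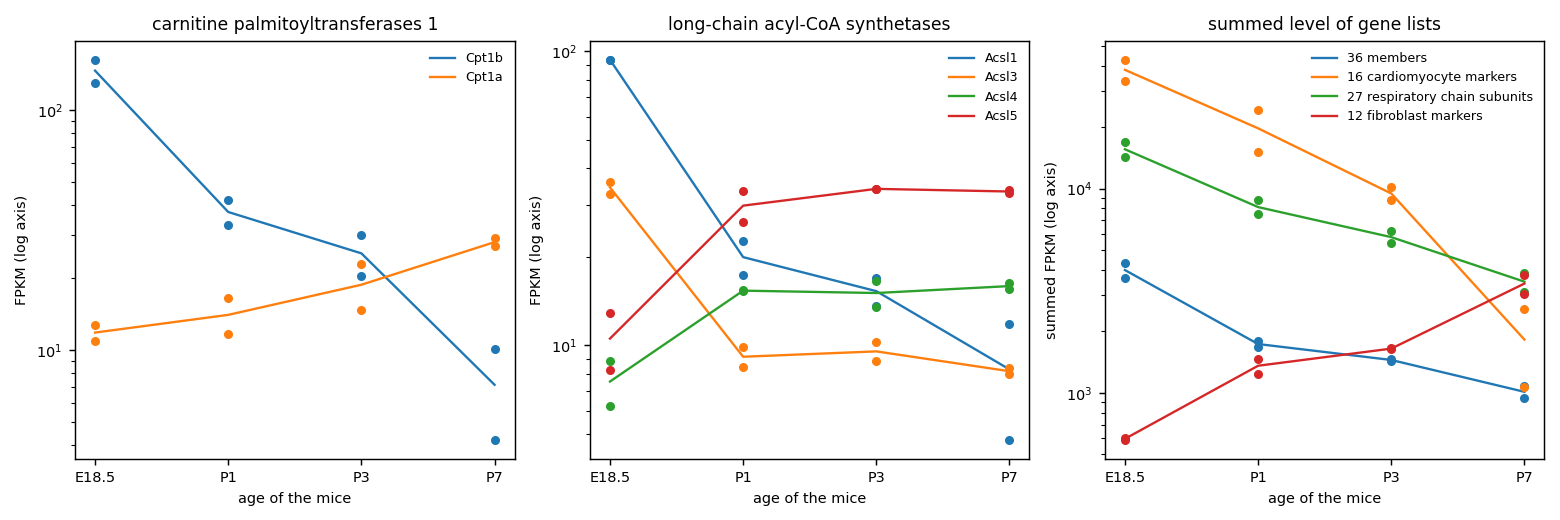
FPKM on log axes at each mouse age of Cpt1a and Cpt1b (left), of the 4 acyl-CoA synthetases (middle) and of gene lists as sums (right), with each library as a point and lines through the means. Cpt1b starts above Cpt1a and ends below it in both P7 libraries, Acsl1 starts highest of the synthetases while Acsl5 is highest at P7, and the cardiomyocyte marker sum falls more steeply than the member sum.

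The remaining genes of the carnitine shuttle were lower or not called. Slc25a20, the carnitine-acylcarnitine carrier of the inner membrane, was at 46.4 and 49.4 FPKM at E18.5, 25.2 and 24.9 on P1, 20.6 and 27.4 on P3, and 19.0 and 16.9 on P7, with a log2 fold change of −1.37 ± 0.15 (SE, adjusted p = 0.000183, limma) at P7. Crat, which forms acetylcarnitine, was at 53.5 and 77.0 FPKM at E18.5 and 14.1 and 10.1 at P7, a log2 fold change of −2.33. Both genes had non-overlapping libraries at every postnatal age against E18.5, and their P1 changes (−0.91 and −0.96) lay just under the fold threshold. Cpt2, which returns acyl groups to CoA in the matrix, was not called at any age. It was at 19.1 and 21.0 FPKM at E18.5, 18.7 and 24.5 at P1, and 12.9 and 10.6 at P7. Slc22a5, the plasma membrane carnitine transporter, ranged from 2.65 to 5.47 FPKM over all 8 libraries and was not called either. The stretch before the start of Slc25a20, chr9:108661886-108662087 on the + strand, is shown because its promoter peak was listed only after birth, while its transcript was lower. It has 2 GC boxes, 1 on each strand.
Slc25a20: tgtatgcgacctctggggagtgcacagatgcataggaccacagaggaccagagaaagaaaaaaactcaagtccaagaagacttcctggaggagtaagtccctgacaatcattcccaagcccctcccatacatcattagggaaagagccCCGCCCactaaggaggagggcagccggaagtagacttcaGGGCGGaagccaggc

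The acyl-CoA dehydrogenases, which carry out the first step of each round, were called lower at P1, P3 and P7, all 4 of them. Acadl, the long-chain enzyme and the most abundant member at E18.5, P1 and P3, was at 366.7 and 481.8 FPKM at E18.5, 169.4 and 182.5 on P1, 128.5 and 131.1 on P3, and 83.8 and 71.8 on P7. The ages did not overlap and fell in order, with a log2 fold change of −2.42 ± 0.15 (SE, adjusted p = 1.66e-05, limma) at P7. Acadm, the medium-chain enzyme, was at 219.8 and 258.5 FPKM at E18.5, 97.2 and 119.4 on P1, 64.4 and 61.6 on P3, and 30.3 and 22.8 on P7. It went on falling after P1: the log2 fold change was −1.99 from P1 to P7 and −1.23 from P3 to P7, both called, and −3.13 ± 0.17 (SE, adjusted p = 9.75e-06, limma) from E18.5 to P7. Acadvl, the very-long-chain enzyme, changed by −2.39 and Acads, the short-chain enzyme, by −1.70 at P7. Of Acadvl's exon bases, 42.9% are shared with Dvl2 on the opposite strand, which the unstranded libraries cannot separate. Dvl2 stayed between 7.06 and 9.43 FPKM while Acadvl went from 198.1 and 241.4 to 45.1 and 37.3. Acadm's stretch, chr3:153944644-153944893 on the − strand, holds 1 half-site at its far end and no GC box.
Acadm: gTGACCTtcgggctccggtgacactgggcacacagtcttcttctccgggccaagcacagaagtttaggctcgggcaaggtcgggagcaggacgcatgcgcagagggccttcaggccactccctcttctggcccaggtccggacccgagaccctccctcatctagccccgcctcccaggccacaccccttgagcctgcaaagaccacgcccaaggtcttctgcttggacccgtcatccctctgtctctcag

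Most enzymes of the later steps were also lower after birth. At P7, 5 of 6 were called lower, with a median log2 fold change of −2.17. Hadha and Hadhb, the subunits of the mitochondrial trifunctional protein that handles long chains, changed by −2.11 and −2.06. Hadh and Echs1, the short-chain hydroxyacyl-CoA dehydrogenase and enoyl-CoA hydratase, changed by −2.23 and −2.52. Acaa2, the mitochondrial thiolase, was at 293.5 and 339.9 FPKM at E18.5, 116.5 and 120.2 on P1, 106.5 and 105.8 on P3, and 74.7 and 54.7 on P7 (log2 fold change −2.29 ± 0.16, SE, adjusted p = 2.54e-05, limma). Hsd17b10, which also takes part in isoleucine breakdown and mitochondrial tRNA processing, was at 105.4 and 170.3 FPKM at E18.5 and 60.2 and 73.8 at P7. It passed on adjusted p (0.0189, limma) but just missed on fold, with a log2 fold change of −0.997.

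The auxiliary enzymes split. Eci1, the isomerase that shifts double bonds for the main pathway, was at 154.9 and 194.9 FPKM at E18.5, 52.6 and 54.9 on P1, 43.4 and 37.7 on P3, and 27.5 and 20.7 on P7, a log2 fold change of −2.81 ± 0.17 (SE, adjusted p = 1.49e-05, limma). Eci2, an isomerase found in mitochondria and peroxisomes, and Decr1, the dienoyl-CoA reductase, changed by only −0.69 and −0.78 at P7 and were not called, although their P7 libraries lay below those of E18.5. Electron transfer genes were all 3 called lower at P7. Etfa and Etfb, the subunits of the electron transfer flavoprotein, changed by −1.85 and −1.69, and Etfdh, its ubiquinone oxidoreductase, by −2.23. Etfb was at 314.4 and 265.7 FPKM at E18.5, 102.2 and 106.2 on P1, 83.9 and 128.1 on P3, and 89.4 and 87.8 on P7. It stayed near its P1 level and became the most abundant member at P7, where its mean of 88.6 FPKM made up 8.76% of the list. Of Etfb's exon bases, 53.0% are shared with Gm45233, which was at or below 2.32 FPKM in all 8 libraries.

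None of the 3 peroxisomal enzymes was called in any mouse comparison, and their median log2 fold change at P7 was −0.06. Hsd17b4, the D-bifunctional protein, was at 28.4 and 32.2 FPKM at E18.5, 31.4 and 31.2 on P1, 31.1 and 31.5 on P3, and 30.1 and 28.2 on P7. Its libraries overlapped between E18.5 and every later age, and the log2 fold change at P7 was −0.06 ± 0.12 (SE, adjusted p = 0.718, limma). Acaa1a, the peroxisomal thiolase, was at 19.4 and 27.3 FPKM at E18.5 and 30.0 and 28.7 at P7 (log2 fold change 0.34, not called). Ehhadh, the L-bifunctional protein, was near the detection filter, between 1.04 and 1.75 FPKM in all libraries.

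**Figure D3:**
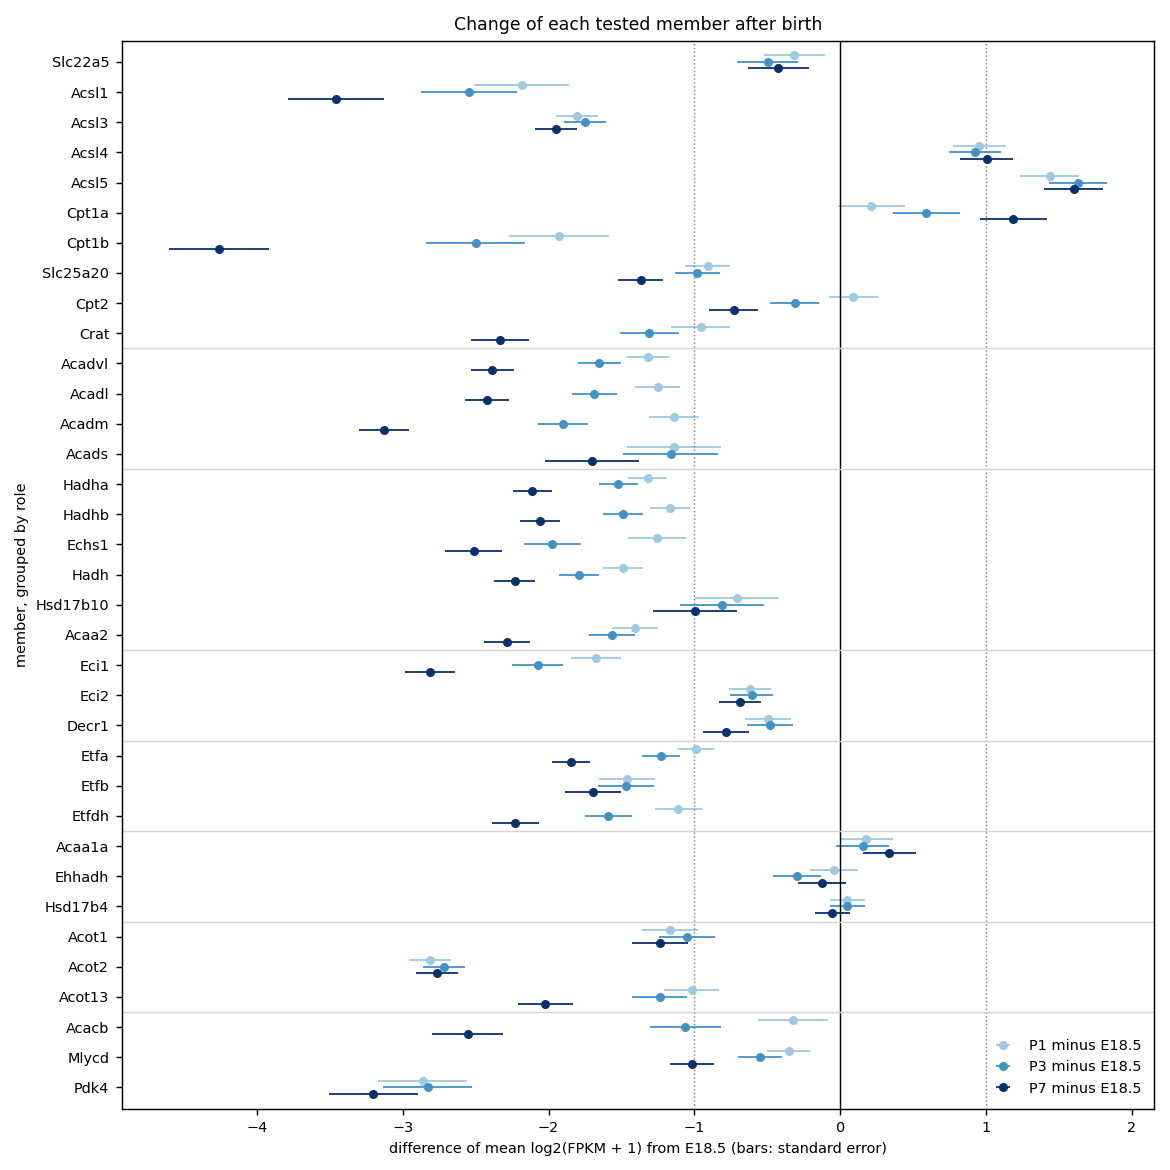
Log2 fold change against E18.5 of each tested member at P1, P3 and P7, ordered by role, on the log2(FPKM + 1) scale with the fitted standard error. The dehydrogenases lie between −3.13 and −1.70 at P7 and the peroxisomal enzymes between −0.12 and 0.34.

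The thioesterases, which release fatty acids from CoA, were all 3 called lower at each postnatal age. Acot2, the mitochondrial long-chain enzyme, was at 43.7 and 41.0 FPKM at E18.5, 5.02 and 5.31 on P1, 5.09 and 6.14 on P3, and 5.54 and 5.23 on P7. Its whole fall was present at P1 (log2 fold change −2.82 at P1 and −2.76 ± 0.14, SE, adjusted p = 8.67e-06, limma, at P7). Acot1, its cytosolic paralog, changed by −1.24 at P7. The pair are near-identical copies, so how their reads were divided is uncertain. Acot13, which sits at the mitochondria, was at 176.7 and 233.1 FPKM at E18.5, 90.7 and 109.5 on P1, 94.5 and 77.1 on P3, and 54.5 and 44.5 on P7.

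The regulators fell at different times. Pdk4, the kinase that turns off pyruvate dehydrogenase and so favors fatty acid use, was at 58.1 and 54.7 FPKM at E18.5, 6.49 and 7.31 on P1, 4.57 and 10.7 on P3, and 5.81 and 4.72 on P7. All postnatal libraries lay below those of E18.5, and 89.4% of its P7 fall on the log2 scale was present at P1 (log2 fold change −3.20 ± 0.31 at P7, SE, adjusted p = 8.14e-05, limma). Acacb, which makes the malonyl-CoA that inhibits carnitine palmitoyltransferase 1, was at 9.16 and 10.7 FPKM at E18.5, 6.12 and 9.70 on P1, 4.09 and 4.38 on P3, and 1.196 and 0.572 on P7. Its E18.5 and P1 libraries overlapped and only 12.7% of the fall was present at P1 (log2 fold change at P7 −2.56 ± 0.24, SE, adjusted p = 8.00e-05, limma). Mlycd, which degrades malonyl-CoA, went from 12.1 and 14.4 FPKM at E18.5 to 6.46 and 5.56 at P7, a log2 fold change of −1.02 at the threshold, whose call was lost as TPM, without haemoglobin genes, and without E18.5 replicate 2 or P7 replicate 2. The ratio of Mlycd to Acacb was 1.31 and 1.34 at E18.5, 1.59 and 1.09 on P1, 2.08 and 2.02 on P3, and 5.40 and 9.72 on P7. Both genes fell, and the P7 ratios divide by Acacb values near the filter of 1 FPKM, so their size is uncertain. Ucp3, a mitochondrial carrier of muscle, was at 0.0801 and 0.0556 FPKM at E18.5, 0.202 and 0.249 on P1, 0.106 and 1.70 on P3, and 0.502 and 0.384 on P7, too low for a test.

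Over time, 19 members were called lower at P1, P3 and P7 alike, 3 (Crat, Etfa and Acacb) at P3 and P7, and 2 (Slc25a20 and Mlycd) at P7 alone. Acsl5 was called higher at all 3 ages, Acsl4 and Cpt1a at P7, and 8 members were never called against E18.5. Among the 24 lower at P7, a median of 58.1% of the log2 fall was already present at P1 (range 12.7% to 102%). Between P1 and P3, none of 35 was called (0.0143% of all genes). For 18 members both P3 libraries lay below both of P1, without overlap, and for 1 above, against 20.1% and 23.9% of all genes, and 8 members, all of them lower, had an unadjusted p under 0.05 in limma (11.3% of all genes did), 6 in voom (12%), which also called 0, and 5 with a replicate block (11.1%). Between P1 and P7, 11 were called lower and none higher, against 5.46% and 3.45% of all genes (8.91% in all), with a median of −0.67 beside −0.004 for all genes. From P3 to P7, Cpt1b, Crat, Acadm and Acacb were called lower, against 2.2% of all genes, and no member higher, against 1.35% (3.55% in either direction). The last count fell to 0 without P3 replicate 1, P3 replicate 2 or P7 replicate 2.

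The members' median change from E18.5 was negative under each scaling tried. The number of members called and the share of higher calls over all genes moved with the scaling. At P7, 55.7% of all calls were higher genes in the main fit, 68.1% as TPM and 45.5% with median-of-ratios size factors. At P3 the shares were 59.4%, 74.4% and 45.7%, and at P1 62.5%, 77.3% and 45.8%. With FPKM rescaled without haemoglobin genes, the shares were 73.3% for P1, 70.1% for P3 and 64.8% for P7. The median log2 fold change of all genes at P7 was 0.40 as TPM, 0.29 without haemoglobin genes and −0.01 with median-of-ratios size factors. The members' P7 median stayed 2.07 to 2.16 below it, and 23 to 25 members were lower and 2 or 3 higher under these scalings. At P1, 19 members were called lower in the main fit, 14 as TPM, 15 without haemoglobin genes and 22 with median-of-ratios size factors. At P3 the counts were 22, 17, 20 and 24. In each of these fits, 1 or 2 members were called higher.

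Genes of fatty acid metabolism outside the list were called in both directions. Of 40 such genes, 39 were found and 30 tested. At P7, 3 were called higher and 5 lower, not far from the shares of all tested genes (15.4% and 12.3%). Their median log2 fold change was −0.04. Cpt1c, the brain form of carnitine palmitoyltransferase 1, was at 1.69 and 1.42 FPKM at E18.5 and 11.7 and 12.4 at P7, a log2 fold change of 2.35. Acot7, a cytosolic thioesterase, was at 24.0 and 29.3 FPKM at E18.5 and 101.6 and 94.9 at P7 (1.85), and Acaca, which makes malonyl-CoA for synthesis, changed by 1.00. Pdk2, a second pyruvate dehydrogenase kinase, changed by −3.20, Phyh, which starts peroxisomal alpha-oxidation, by −3.33, Acat1, the thiolase of ketone bodies, by −1.96 and Ech1, a dienoyl-CoA isomerase, by −1.62.

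Of 15 tested regulators of these genes, 6 were called lower and 1 higher at P7, against 12.3% and 15.4% of all tested genes. Ppargc1a, the coactivator of mitochondrial genes, was at 10.3 and 7.91 FPKM at E18.5, 4.16 and 7.19 on P1, 2.81 and 3.61 on P3, and 0.666 and 0.224 on P7 (log2 fold change −2.82). The others lower were Ppargc1b (−1.97), Esrrg (−2.12) and Esrra (−1.58), a coactivator and a pair of estrogen-related receptors, and the muscle factors Mef2c and Mef2d. Ppard, a fatty acid receptor, was higher (1.39). Ppara, the receptor best known for driving these genes, was at 1.06 and 1.44 FPKM at E18.5 and 0.378 and 0.0557 at P7. Its log2 fold change of −0.89 did not reach the fold threshold. At such low values the log2(FPKM + 1) scale understates a change, so −0.89 does not rank Ppara against the more abundant regulators.

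ATAC-seq, in which a transposase cuts open chromatin, was available as peak lists called for each library, of 13149 to 95257 peaks. The P3 and P7 lists were longer than those of E18.5 and P1. Lists also carried different name prefixes (E18.5, P3 and P7 replicate 1 shared one, E18.5 replicate 2 and both P1 replicates another, and P3 replicate 2 and P7 replicate 2 one each), and what a prefix marks is not stated. A peak within 2.5 kb of a transcript start was listed for 31 and 31 of the 36 members at E18.5, 32 and 23 on P1, 35 and 35 on P3, and 35 and 35 on P7. Over all tested genes the shares were 67.1% and 62.4%, 69.2% and 43.0%, 91.7% and 87.7%, and 86.5% and 85.5%. In all 8 lists a promoter peak was present for 19 of the 36 members, against 36.6% of tested genes. The nearest summit lay a median of 72 bases from the main start over 257 pairs of member and list, and 91.1% lay within 500 bases. The median fold enrichment of the members' peaks ranged from 5.32 to 9.07 among lists and was 6.77 and 5.88 at E18.5 and 6.35 and 6.73 at P7.

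Nearly all members, those with lower RNA included, had a promoter peak at P3 and P7. The 1 member without was Cpt1b in both P3 lists and in P7 replicate 1, and Ucp3 in P7 replicate 2. A peak was counted as gained where neither E18.5 list and both lists of the later age had one, and as lost in the opposite case. At P7, Hsd17b10 and Slc25a20 gained one (12.1% of tested genes did) and no member lost one (0.0286%). At P3, Hsd17b10, Slc25a20 and Ucp3 gained one (15.6%, over tested genes, of which Ucp3 is not one) and Cpt1b lost one (0.0715%, 10 genes). At P1, Slc25a20 gained one (1.37%) and Acsl5, Hadha and Hadhb lost one (3.81%), the last pair sharing the same peaks at their divergent starts. Slc25a20 had no peak nearer than 12429 bases in either E18.5 list, and its start peak had a fold enrichment of 5.48 and 3.62 on P1, 8.90 and 8.03 on P3, and 4.32 and 5.11 on P7. Its gain at P1 rests on a very weak peak in P1 replicate 2, with only 1.77% of that list scoring lower (38.7% in P1 replicate 1). A peak at the Cpt1b start had a fold enrichment of 4.60 and 5.46 at E18.5 and 4.94 and 4.93 at P1, was not listed in either P3 list or in P7 replicate 1, and was listed at 2.94 in P7 replicate 2. In the 3 lists without it, the nearest peak lay 3478 to 3515 bases away, with a fold enrichment of 8.39 to 10.1, so that with a limit of 5 kb no member had lost a peak at P3. Those 3 lists were longer than both E18.5 lists, which have the peak, and why they lack it was not tested. The Cpt1b peak of P7 replicate 2 was a weak one, with 19.2% of that list scoring lower. With the same number of top peaks taken from each list, no member gained a peak at any age. Acsl5 had a peak 592 and 614 bases from its main start at E18.5, none nearer than 8121 bases at P1, where its RNA was already higher, and one again 75 to 433 bases away at P3 and P7.

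**Figure D4:**
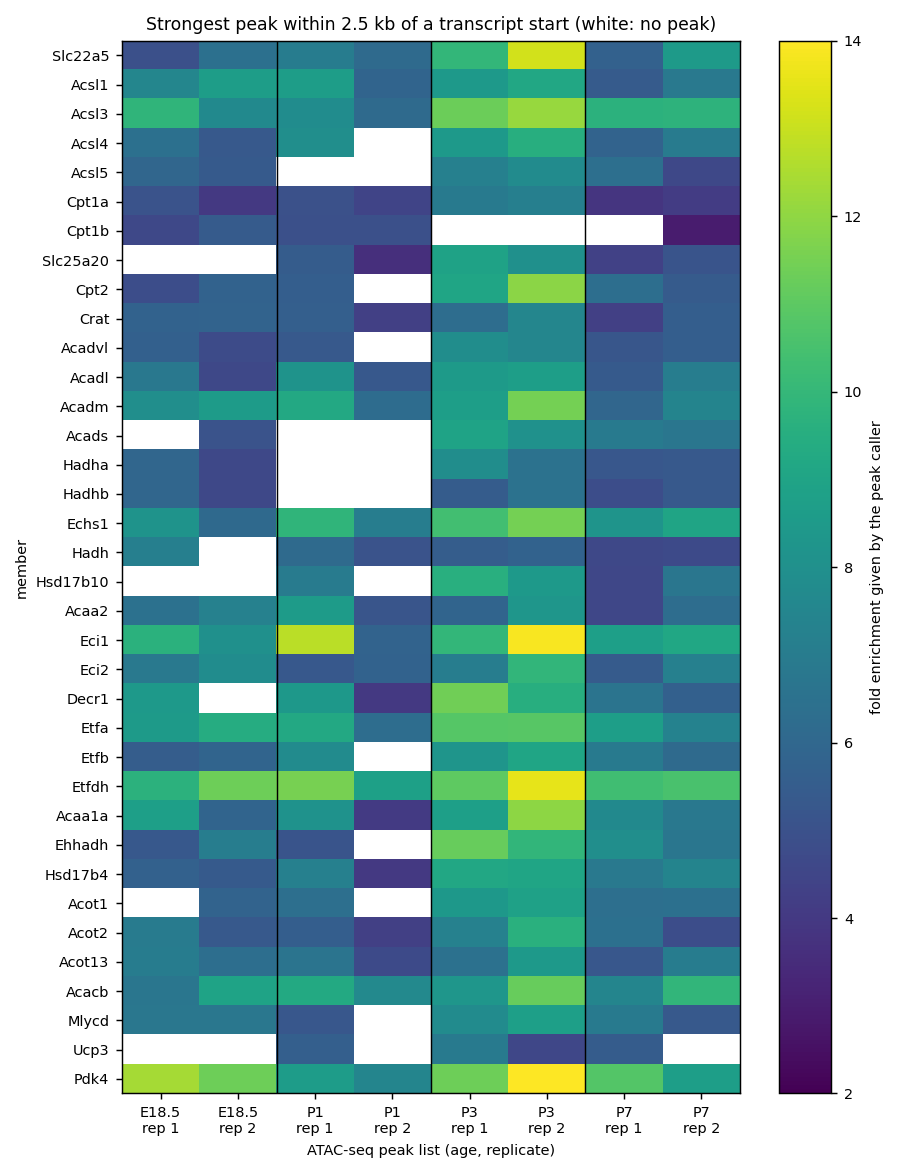
Fold enrichment of the strongest peak within 2.5 kb of a transcript start for each of the 36 members in the 8 ATAC-seq peak lists, with blank cells where no peak was listed. Cpt1b is blank in both P3 lists and in P7 replicate 1, and Slc25a20 is blank in both E18.5 lists.

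In cultured rat cardiomyocytes, TSA changed no member past both thresholds: 0 of 33 tested were called in limma, against 2.13% of all 13625 tested genes (1.81% higher and 0.316% lower). At an unadjusted p under 0.05 there were 5 members in limma, 4 higher and 1 lower, where 19.8% of all tested genes had such a p, and 5 in voom, which also called 0. With the replicate number as a block there were 15, 12 higher and 3 lower, where 25.7% of all genes had such a p, and still 0 were called. Whether the numbers mark pairs is not given in the sources used here. The rat fold changes and standard errors given here come from fits without a block. The members' median standard error was 0.241 without the block and 0.141 with it. Over all genes the block moved the calls from 247 to 259 higher and from 43 to 80 lower. Replicate 3 stood apart in both groups. Its Spearman correlations with replicates 1 and 2 were 0.956 and 0.951 with DMSO and 0.965 and 0.965 with TSA. Those between replicates 1 and 2 were 0.985 and 0.986. DMSO replicate 3 was the lowest of the 3 DMSO libraries for 28 of the 33 members and the lowest of all 6 libraries for 26, and its smooth muscle marker sum was 2411 FPKM beside 993.6 and 910.5 in the other DMSO libraries and 680.3, 678.5 and 1643 with TSA. Cardiomyocyte marker sums were 16430, 17380 and 19720 FPKM with DMSO and 15820, 14140 and 28030 with TSA, and macrophage sums 1006, 1027 and 486.0 against 551.9, 474.3 and 421.0. The part of these shifts in the rat values was not tested. The median log2 fold change of the members was 0.27 (all genes 0.03), and 0.03 without DMSO replicate 3. Without replicate 3 of both groups it was 0.02 (all genes 0.02). Of the 33, 26 had a positive fold change, 18 without DMSO replicate 3 and 20 without replicate 3 of both groups.

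Etfb came nearest to a call in rat. It was at 127.9, 114.8 and 93.1 FPKM with DMSO and at 196.8, 191.2 and 219.7 with TSA. The groups did not overlap, and the log2 fold change of 0.86 ± 0.14 (SE, n = 3 per group, adjusted p = 0.0247, limma) passed on adjusted p but not on fold. Without DMSO replicate 3 the log2 fold change was 0.73 (adjusted p = 0.0174, limma), and over all alternatives the adjusted p ran from 0.00462 to 0.143. Leaving out any single library other than DMSO replicate 3 raised it to between 0.0591 and 0.143. Hadha, at 164.2, 133.3 and 100.6 FPKM with DMSO and 208.1, 217.8 and 179.0 with TSA, and Acads, at 59.8, 59.6 and 37.1 and then 79.4, 75.7 and 82.7, also had non-overlapping groups, higher with TSA (log2 fold changes 0.62 and 0.63), as 17.1% of all tested genes did. Neither was called.

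Acsl5, the synthetase that rose in mouse, was at 27.5, 26.1 and 34.9 FPKM with DMSO and 22.3, 22.4 and 20.9 with TSA, a log2 fold change of −0.40 with non-overlapping groups, as for 10.1% of all tested genes on that side. It was not called, and neither was Acsl3 (−0.69), whose highest value, 46.2 FPKM, was that of DMSO replicate 3. Echs1 was listed at 0 in TSA replicate 1 and at 23.7 and 30.5 FPKM in the other TSA libraries, beside 35.0, 33.5 and 32.2 with DMSO, so its fold change of −1.91 ± 1.23 (SE) rests on that 1 value. Cpt1a was at 37.0, 28.1 and 12.1 FPKM with DMSO and 39.6, 46.6 and 28.3 with TSA, and Cpt1b at 55.1, 44.2 and 19.1 and then 43.4, 46.1 and 59.9. Both pairs of groups overlapped, and the ratio of Cpt1b to Cpt1a was 1.49, 1.58 and 1.58 with DMSO and 1.10, 0.989 and 2.12 with TSA. Pdk4 was at 17.9, 11.7 and 5.48 FPKM with DMSO and 20.4, 26.3 and 7.66 with TSA, with replicate 3 the lowest in both groups. Ehhadh, between 0.232 and 0.898 FPKM, and Ucp3, listed at 0 in 5 of 6 libraries, did not pass the filter. Among 29 tested genes of fatty acid metabolism outside the list, 1 was called, against 2.13% of all tested genes. This was Acot7, at 17.6, 13.4 and 14.9 FPKM with DMSO and 31.1, 34.7 and 30.7 with TSA.

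**Figure D5:**
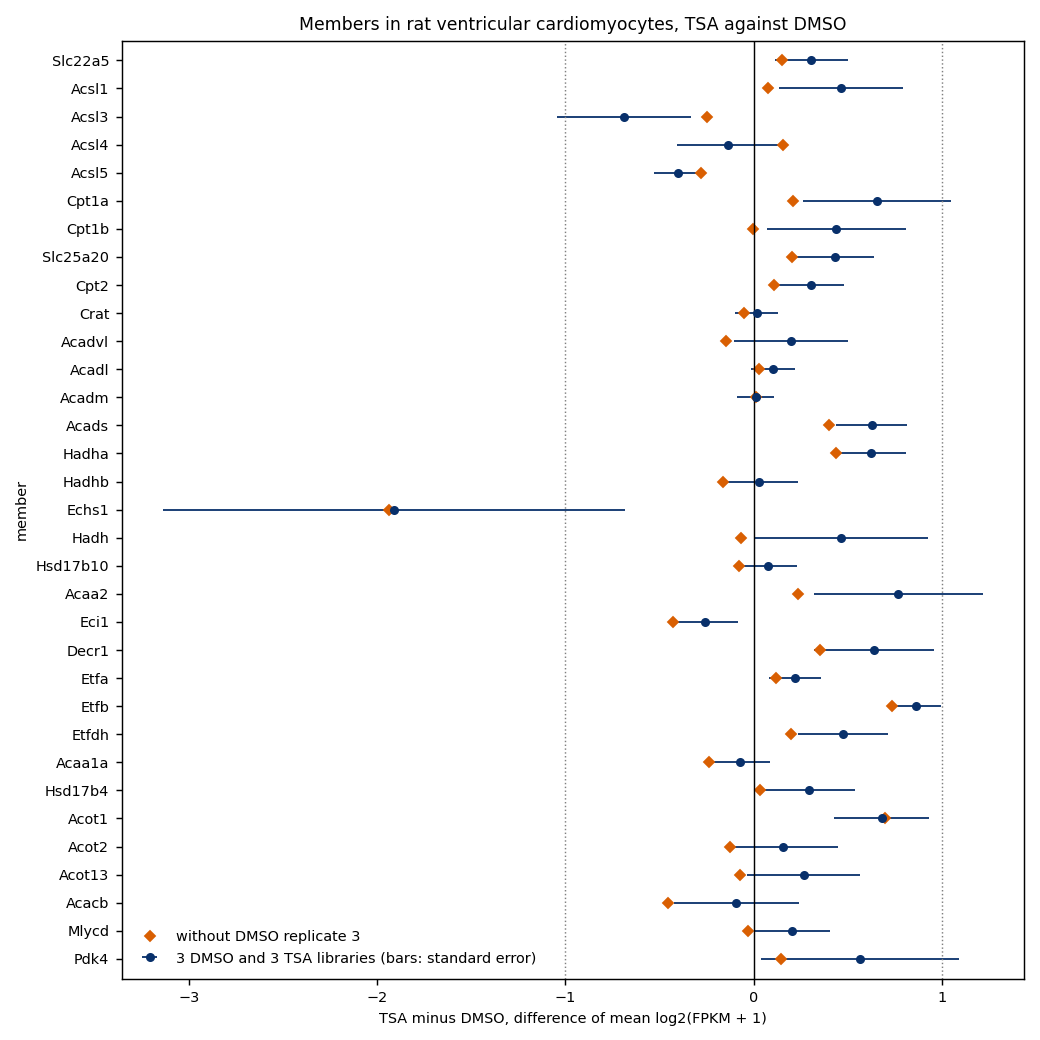
Difference between TSA and DMSO in mean log2(FPKM + 1) for each of the 33 members tested in rat, with its standard error over all 6 libraries (circles) and again without DMSO replicate 3 (diamonds). All 6 libraries give 26 members a positive difference, and 18 are positive without that library.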

How the data were processed

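RNA-seq values were measured in 8 mouse and 6 rat libraries and open chromatin in 8 mouse libraries, and 6 HiChIP libraries were not analysed here. The libraries were poly(A)-selected, unstranded, and read as paired ends of 150 bases. Per the study's methods, the authors aligned reads to mm10 or rn6 with HISAT2 2.1.0 and deposited StringTie 1.3.5 transcript estimates, giving FPKM, TPM and coverage for annotated transcripts. FPKM was summed over the transcripts of a gene. No read counts were used, so each library's depth was worked out by dividing coverage by FPKM. The authors' ATAC-seq peak lists came from cutadapt, Bowtie2, Picard and MACS2 for each library. Per the file headers and values, they give a fold enrichment (ratio to background), a score and −log10 p and q values for each peak.

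Tests used limma 3.58.1 in R 4.3.3 with an intensity trend on log2(FPKM + 1), with all 8 mouse libraries in 1 fit and the 6 rat libraries in another. Genes with at least 1 FPKM in 2 mouse or 3 rat libraries were tested. A call needed a Benjamini-Hochberg adjusted p under 0.05 over all tested genes and an absolute log2 fold change above 1. Fold changes on this scale understate the change of low genes. The methods of the study name edgeR, which needs counts and so was not run. Same-numbered deviations of the rat libraries correlated at 0.224, 0.194 and 0.346, each the highest for its number. DMSO replicate 2 with TSA replicate 1 came close, at 0.167, so a pairing by number is not established. The code was tested on simulated data, and tables and figures were made with Python 3.11.15, pandas 2.3.3, numpy 2.4.6 and matplotlib 3.10.9.

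Genes described library by library were the most abundant of each role, the members with the largest called changes in each direction, and a set of named regulators. The members, marker lists and tests were chosen with earlier results of these data known. Alternatives were another pseudocount (0.1), TPM, no filter or a stricter one (mean FPKM 5 or more), scaling by median-of-ratios size factors, FPKM without haemoglobin genes, limma-voom on estimated reads, a replicate block, only the ages compared, each library left out in turn, other peak limits (1 and 5 kb), the upper part of each peak list by score, and equal numbers of top peaks.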

Additional observations from a re-analysis of the deposited data

How the results depend on the processing

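Of the 27 members called at P7 against E18.5, 25 stayed called under every alternative, Acsl4 and Mlycd being the exceptions. The replicate block left the counts of members called in mouse at 20, 23, 27, 0, 11 and 4 (P1, P3 and P7 against E18.5, P3 against P1, P7 against P1 and against P3) and at 0 in rat, so that no count of members moved. In mouse, same-numbered correlations ran from −0.096 to 0.171. With 2 libraries per age, differently numbered ones are the same values with the opposite sign. They cannot decide whether the numbers pair libraries. Without a filter, the count from P3 to P7 was 0. With 1 library left out, members called ranged from 17 to 24 at P1, 20 to 26 at P3 and 25 to 28 at P7, stayed at 0 from P1 to P3, ranged from 6 (without P7 replicate 2) to 13 from P1 to P7 and from 0 to 5 from P3 to P7, and stayed at 0 in rat.

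Over all genes, calls from P3 to P7 went from 496 to 15 without a filter, 24 and 26 without P3 replicate 1 or 2, and 101 without P7 replicate 2. Those from P1 to P3 went from 2 to between 0 and 35, those from P1 to P7 from 1245 to 829 without P7 replicate 2, and those in rat from 290 to 79 with the stricter filter and to between 0 and 446 with a library left out.

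Peak results depended on list length. With equal numbers of top peaks, 0 members gained a peak at P1, P3 and P7, 6, 4 and 1 lost one, and 9 had one in all 8 lists. In the upper part of each list by score, 1 lost a peak at P1 and 0 at P3, 9 gained one at P3 and 7 at P7, and 12 had one in all lists. With a limit of 5 kb, 0 lost one at P3. With 1 list left out, 1 to 3, 3 to 5 and 2 to 4 gained one at P1, P3 and P7, 3 to 9, 1 and 0 to 1 lost one, and 19 to 25 had one in all remaining lists. The cause of these moves was not tested beyond list length. With 2 libraries per age, the members' median standard error was 0.171 on the log2 scale.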
